A study of Mus musculus with 18 samples.

Results

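Oligodendrocytes wrap axons in myelin, and the genes of this cell lineage were followed here through the LS of mice that had or had not given birth. The set holds 39 genes, of which 9 are grouped as precursor genes (Pdgfra, Cspg4, Gpr17, Neu4, Lhfpl3, C1ql1, Tnr, Olig1 and Olig2) and 30 belong to myelin or to the cell that makes it. Of the 9, Gpr17, Olig1 and Olig2 are not limited to the oligodendrocyte precursor, as described below. The rule that names the 39 genes uses gene names and no measured value, although the set was drawn up with earlier results of these data known. On the array, 38 of the 39 genes had a probeset (a group of probes that together report 1 target) naming that gene alone, out of 19938 genes with such a probeset. The exception was Evi2a, which shares its probeset with neighbouring genes and was not analysed here. All 9 precursor genes and 29 of the myelin genes were therefore measured, each by exactly 1 probeset, and the mean log2 signal of every one of them over the 18 arrays was at least 7.64.

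The samples were LS from adult outbred hsd:ICR female mice about 70 days old, each hybridised to its own Affymetrix Mouse Gene 1.0 ST array, and there were 6 mice in each of 3 groups. Virgin mice had been housed with other females in place of a breeder male and were taken in diestrus. Maternal mice were lactating dams that had stayed with a litter culled to 11 pups, and pups removed mice were dams whose litter was taken away on postpartum Day 2 and that were back in diestrus at dissection. Both groups of dams were dissected on postpartum Day 7, and in all 3 groups the LS was punched from 200 micron sections, so that each sample was a mix of neurons, glia and any neighbouring tissue that the punch caught.

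Oligodendrocyte precursors divide and persist in the adult brain, and some of them leave the cycle, pass through a short committed stage and become oligodendrocytes that build myelin. The transcription factors Olig1, Olig2 and Sox10 act along the lineage, and Myrf turns on the myelin genes as the cell matures. Gpr17 and Enpp6 are best known from the committed and newly formed stages, whereas Mbp, Mobp, Mog, Mag and Cnp belong to the mature sheath. In a tissue punch, fewer cells of a type and less RNA in each of them cannot be told apart.

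The signal was compared between groups as a log2 difference, so that 1 unit is a doubling, with a linear model over all 35557 probesets in limma. A gene was called changed when its p, adjusted over the whole table by the Benjamini-Hochberg method, was under 0.25, which is the loose threshold of the study. Array medians lay between 7.61 and 7.7, and arrays of a group correlated with r from 0.9906 to 0.9947. Median differences over the whole table were 0.012 between maternal and virgin mice, -0.003 between maternal and pups removed mice and 0.012 between pups removed and virgin mice. One library stood apart for these genes: in pups removed replicate 3 all 29 myelin genes were below the mean of their group, and the values that this array moved most are also given without it.

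Enpp6, Pllp and Mobp were the 3 myelin genes picked for a look at their sequence. Enpp6 was called lower in maternal LS, and Pllp was just separated between maternal and virgin mice without passing the threshold. Mobp, which did not pass either, had a higher mean in maternal mice than in both other groups. Between groups these 3 did not all lean the same way, with Enpp6 and Pllp lower and Mobp higher in maternal mice. Whether sequence before a gene bears on any difference between mice or groups was not tested. The 250 bases before the start of the 3 genes are shown. They come from RefSeq on the build GRCm38.p6 and are written in the direction of the gene, for Enpp6 from chr8:46986637-46986886 on the plus strand, for Pllp from chr8:94696243-94696492 on the minus strand and for Mobp from chr9:120149492-120149741 on the plus strand. Capitals mark ACAAAG on either strand (CTTTGT as read here), a form of the core letters bound by SOX factors such as Sox10. Related forms, such as the acaatg in the Enpp6 window, were not searched or marked.
Enpp6: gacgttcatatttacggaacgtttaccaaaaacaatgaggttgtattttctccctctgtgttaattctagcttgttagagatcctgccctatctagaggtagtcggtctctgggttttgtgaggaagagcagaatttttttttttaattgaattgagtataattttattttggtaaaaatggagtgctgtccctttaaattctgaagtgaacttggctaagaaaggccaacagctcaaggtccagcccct
Pllp: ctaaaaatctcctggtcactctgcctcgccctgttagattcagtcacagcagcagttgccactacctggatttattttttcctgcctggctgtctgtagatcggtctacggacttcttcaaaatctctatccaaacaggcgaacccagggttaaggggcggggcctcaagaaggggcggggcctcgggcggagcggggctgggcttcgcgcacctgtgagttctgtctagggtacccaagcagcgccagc
Mobp: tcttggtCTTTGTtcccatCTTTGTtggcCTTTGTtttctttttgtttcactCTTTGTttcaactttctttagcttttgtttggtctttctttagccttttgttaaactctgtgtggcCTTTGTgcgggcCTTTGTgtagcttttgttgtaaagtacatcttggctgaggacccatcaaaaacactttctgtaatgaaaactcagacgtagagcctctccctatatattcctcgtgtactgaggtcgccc
In Mobp the letters ACAAAG occurred 6 times, at 243, 231, 221, 198, 132 and 120 bases before the start. These matches lie in a stretch that is rich in T and in which similar letters, such as cttttgt, recur. In Enpp6 and Pllp this form did not occur in the window, and other forms were not searched. Among 32851 such windows in RefSeq 16.5% held the motif, and among 35 windows of 27 genes of the set 25.7% did. The E-box CAGCTG, a form of the site that Olig factors bind, was searched on both strands as well and was in none of the 3 windows, against 13% of all windows and 8.57% of those of the set. These are matches of letters and not measured binding.

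As 2 lists, myelin genes and precursor genes had nearly the same mean signal in the 3 groups. The mean over the 29 myelin genes was 9.69 ± 0.086 (SD, n = 6) in virgin mice, 9.71 ± 0.096 in maternal mice and 9.68 ± 0.18 where pups were removed. The mean over the 9 precursor genes was 9.33 ± 0.032, 9.34 ± 0.036 and 9.34 ± 0.060 in the same order. Within each mouse the precursor mean minus the myelin mean was -0.37 ± 0.072, -0.37 ± 0.086 and -0.34 ± 0.17, again for virgin, maternal and pups removed mice. Differences between group means were thus at most 0.022 in size for any of these 3 quantities, well inside the spread between mice of a group, and the arrays of every pair of groups overlapped. Without pups removed replicate 3 the myelin mean of that group was 9.74 ± 0.12 and the precursor minus myelin mean -0.41 ± 0.078 (SD, n = 5), and the precursor mean stayed at 9.34.

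**Figure D1:**
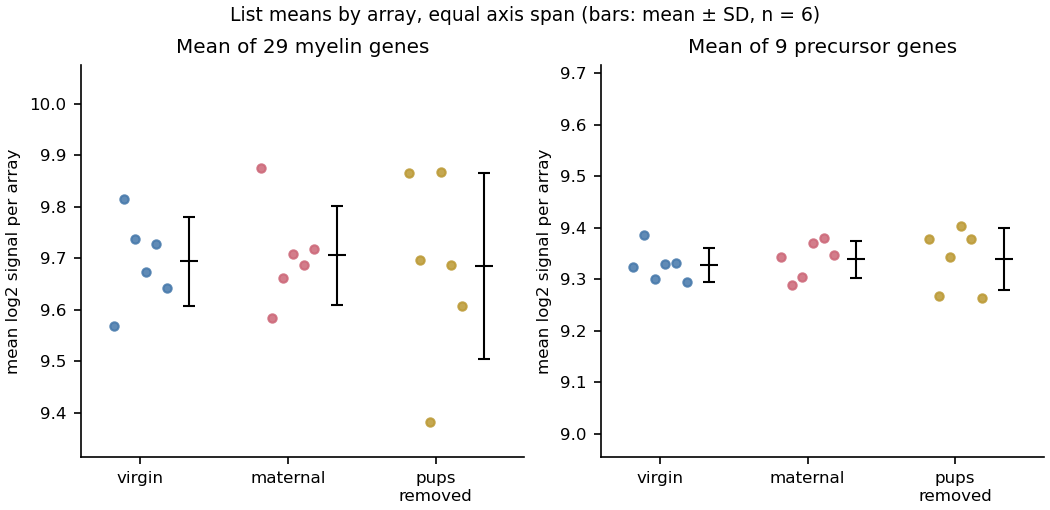
Mean log2 signal per array over the 29 myelin genes (left) and the 9 precursor genes (right) in virgin, maternal and pups removed mice, with 1 point per mouse, bars for mean ± SD (n = 6) and the same axis span in both panels. The groups overlap in both panels, and myelin means run from 9.38 (pups removed replicate 3) to 9.88 (maternal replicate 1), a wider range than the 9.26 to 9.40 of the precursor means.

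Gene by gene, the maternal LS differed little from the virgin LS. Of the 38 genes, 24 had a higher and 12 a lower mean in maternal mice, 2 had the same mean, and the median difference was 0.020. A single gene passed the threshold, Enpp6, which fell, while 1.65% of all probesets passed, so the count was close to that over all probesets. Unadjusted p was under 0.05 for 2 genes with the higher mean in maternal mice (Myrf and Olig2) and for 3 with the lower mean (Enpp6, Pllp and Gpr17), where 10.4% of all probesets had such a p. The median difference was 0.027 for myelin genes, and ran from 0.011 without maternal replicate 1 to 0.052 without maternal replicate 2. For precursor genes it was 0.007, and ran from -0.008 without virgin replicate 6 to 0.020 without virgin replicate 2, so that its sign is not settled.

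Between maternal and pups removed mice no gene of the set passed the threshold, where 0.0309% of all probesets did. The mean was higher in maternal mice for 26 genes and lower for 12, with a median difference of 0.022. Unadjusted p was under 0.05 for Mobp, with the higher mean in maternal mice, and for Enpp6, Pllp and Gpr17, with the lower one, against 8.96% of all probesets. The median of the myelin genes was 0.025, and it took the other sign, -0.027, without pups removed replicate 3. The median of the precursor genes was 0.020 and became -0.002 without pups removed replicate 6. The same 6 maternal mice enter this comparison and the one with virgin mice, so the values of a gene in the 2 are not independent.

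Between pups removed and virgin mice no gene was called, against 0.208% of all probesets, and no gene had an unadjusted p under 0.05, against 8.13% of all probesets. There were 17 genes with the higher and 20 with the lower mean in pups removed mice and 1 with the same mean. Differences ran from -0.10 for Mobp and Mal to 0.13 for Plekhh1, with a median of -0.007. Without pups removed replicate 3 the difference of Mobp was -0.031, and the median of the myelin genes went from -0.010 to 0.041. Without pups removed replicate 4 these were -0.17 and -0.044.

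**Figure D2:**
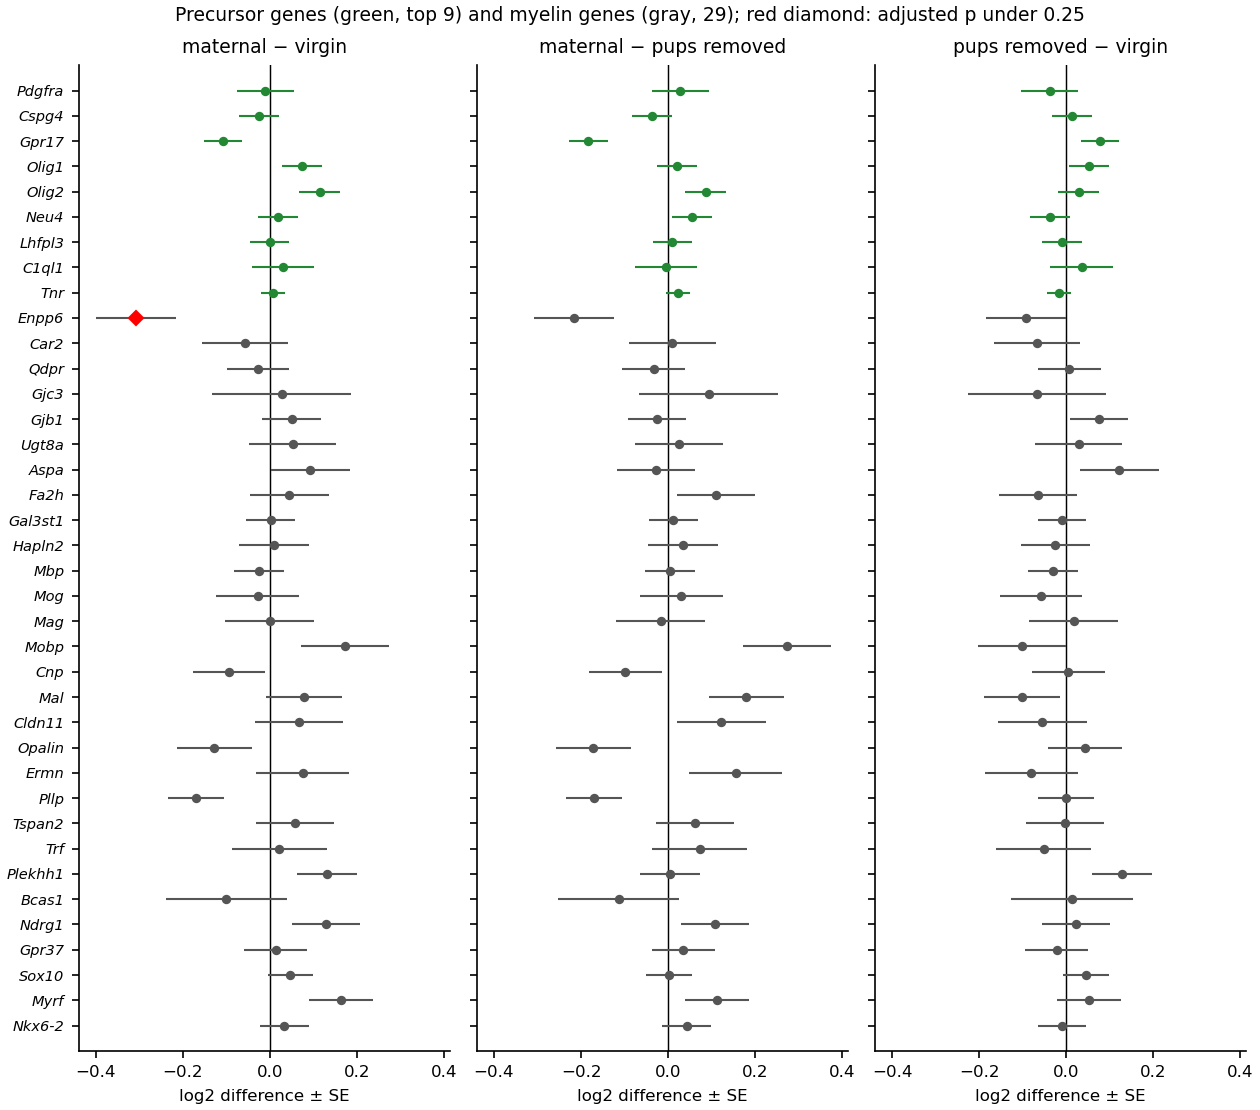
Log2 difference ± SE from limma for each of the 9 precursor genes (green) and 29 myelin genes (gray) in the 3 comparisons, with a red diamond where the adjusted p was under 0.25. The sole diamond is Enpp6 between maternal and virgin mice at -0.31, and the differences between pups removed and virgin mice all lie between -0.10 and 0.13.

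How small a change the arrays could show differed between the 2 lists. The 95% interval of a difference reached a median of 0.18 to either side for the myelin genes and 0.097 for the precursor genes. In the comparison of maternal with virgin mice, 26 of 29 myelin intervals and 7 of 9 precursor intervals held 0. No interval of that comparison extended beyond -0.50 or 0.38 among the myelin genes, or beyond -0.20 or 0.21 among the precursor genes, so a doubling or halving of any of the 38 signals lay outside its interval.

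Enpp6, a choline-specific phosphodiesterase and a known marker of newly forming oligodendrocytes, fell in maternal LS. Its log2 signal was 7.57 at the lowest, 7.755 at the median and 7.97 at the highest in virgin mice. In maternal mice the lowest was 7.25, the median 7.475 and the highest 7.62. The pups removed mice ran from 7.43 to 8.0 with a median of 7.65. All 6 maternal arrays were below the virgin mean of 7.78, but the highest maternal arrays (replicates 4 and 1) lay above the lowest virgin one (replicate 6), so the groups overlapped.

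Compared with virgin mice the difference of Enpp6 was -0.31 (SE 0.092, 0.81-fold, 95% interval -0.50 to -0.11, limma adjusted p = 0.244). Against pups removed mice it was -0.22 (SE 0.092, limma adjusted p = 0.519), and between pups removed and virgin mice it was -0.092 (limma adjusted p = 0.854). Without pups removed replicate 3 the last of these was -0.041 and the difference from pups removed mice -0.27, and without pups removed replicate 1 they were -0.15 and -0.15. The call was near the threshold. It held in 6 of the 18 fits that left out 1 array, and over all 18 the difference ran from -0.35 to -0.27 and the limma adjusted p from 0.153 to 0.468. It was lost without any one of virgin replicates 1 to 5, maternal replicates 2 to 6 or pups removed replicates 2 and 5.

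Gpr17, a G protein-coupled receptor of committed precursors, was the gene of the set with the smallest p in the comparison with pups removed mice. Virgin arrays ran from 8.76 through a median of 8.825 to 8.87, and maternal arrays from 8.60 through 8.75 to 8.79. Pups removed arrays ran from 8.77 through a median of 8.91 to 9.01. Maternal arrays were thus mostly the lowest and pups removed arrays mostly the highest, with some overlap between each pair of groups. All 6 maternal arrays were below the pups removed mean, and the difference was -0.18 (SE 0.044, limma adjusted p = 0.278). The difference from virgin mice was -0.11 (SE 0.044, limma adjusted p = 0.411), and pups removed minus virgin was 0.077 (limma adjusted p = 0.709). Neither maternal comparison passed the threshold, although the one with pups removed mice did so without maternal replicate 1 (-0.19, limma adjusted p = 0.22) or without pups removed replicate 4 (-0.21, limma adjusted p = 0.172), and under 3 of the alternative settings listed with the processing.

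**Figure D3:**
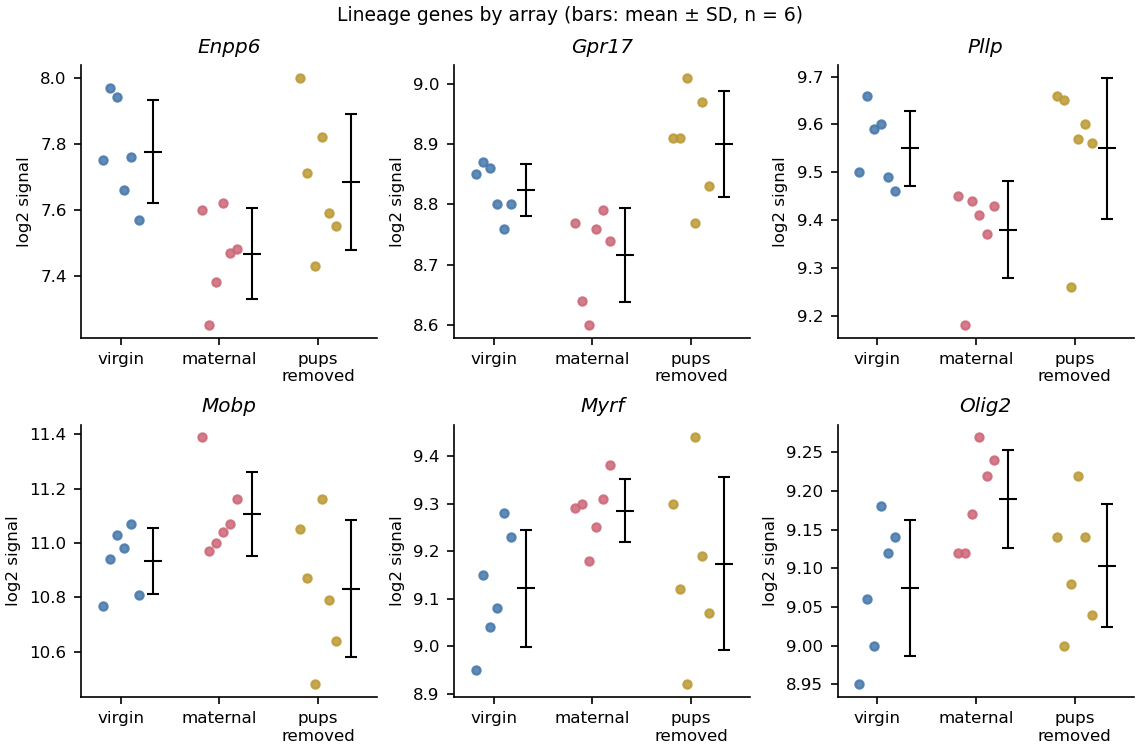
Log2 signal of Enpp6, Gpr17, Pllp, Mobp, Myrf and Olig2 in each mouse, by group, with bars for mean ± SD (n = 6); each panel has its own axis range. Maternal points sit low for Enpp6, Gpr17 and Pllp and high for Mobp, Myrf and Olig2, and the pups removed group holds the widest spread for Enpp6, Pllp, Mobp and Myrf.

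Among the 11 genes of the myelin sheath itself, 5 had a higher and 5 a lower maternal than virgin mean, 1 was equal, and none was called. Mbp, the major basic protein that compacts the sheath, had a log2 signal of 11.75 ± 0.073 in virgin mice, 11.73 ± 0.11 in maternal mice and 11.72 ± 0.11 where pups were removed. Its maternal minus virgin difference was -0.025, with a 95% interval from -0.14 to 0.095. The arrays of the 3 groups covered much the same range, from 11.53 (pups removed replicate 3) to 11.92 (maternal replicate 1).

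Mag, an adhesion protein of the inner sheath, was at 10.88 ± 0.14 in virgin mice, 10.88 ± 0.15 in dams with pups and 10.90 ± 0.25 in dams without them. Mog, a surface protein of the outermost lamella, was at 9.95 ± 0.15, 9.92 ± 0.12 and 9.89 ± 0.23 in the same order. Cnp, an enzyme of the cytoplasmic channels in myelin, was at 11.26 ± 0.12, 11.17 ± 0.14 and 11.27 ± 0.18. The maternal minus virgin differences of these 3 genes were 0 for Mag (95% interval -0.21 to 0.21), -0.028 for Mog (-0.23 to 0.17) and -0.093 for Cnp (-0.27 to 0.082), all smaller than the spread between mice.

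Mobp, an abundant protein of central myelin, and Pllp, the proteolipid plasmolipin of myelin membranes, leaned in opposite directions. Mobp ran from 10.77 through a median of 10.96 to 11.07 in virgin mice. In maternal mice it ran from 10.97 through 11.055 to 11.39, and in pups removed mice from 10.48 through 10.83 to 11.16. The highest array was maternal replicate 1 and the lowest pups removed replicate 3, and the groups overlapped. The maternal mean was 0.27 above that of pups removed mice (SE 0.10, 1.21-fold, limma adjusted p = 0.454), and the excess over virgin mice was 0.17 (SE 0.10) with a limma adjusted p of 0.572, so neither passed. With pups removed mice as the reference, it was 0.20 without pups removed replicate 3, and it passed without pups removed replicate 4 (0.34, limma adjusted p = 0.212).

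Pllp ran from 9.46 through a median of 9.545 to 9.66 in virgin mice and from 9.18 through 9.42 to 9.45 in maternal mice, so that the highest maternal array lay just below the lowest virgin one. The share of all probesets with such a separation is not given here. In pups removed mice 5 arrays lay within the range 9.56 to 9.66, and replicate 3 was at 9.26. The maternal mean was 0.17 lower than both the virgin mean (SE 0.064, 0.89-fold, limma adjusted p = 0.354) and the pups removed mean (SE 0.064, limma adjusted p = 0.469), and neither difference passed. Without pups removed replicate 3, which shares in the estimate of spread, the difference from virgin mice passed (-0.17, limma adjusted p = 0.222). The difference from pups removed mice was then -0.23 (limma adjusted p = 0.25), still not below the threshold. Without maternal replicate 2, the lowest maternal array, both differences were -0.13.

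The other 5 genes of the sheath were Mal, Cldn11 and Tspan2, which span the membrane several times, the membrane protein Opalin, and Ermn, a protein of the oligodendrocyte cytoskeleton. Their maternal minus virgin differences ran from -0.13 for Opalin to 0.078 for Mal, and none had an unadjusted p under 0.05. Relative to pups removed mice, Mal was at 0.18 (SE 0.087, limma adjusted p = 0.570), Ermn at 0.15 (SE 0.11) and Opalin at -0.17 (SE 0.086, limma adjusted p = 0.589).

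The genes that make myelin lipids showed little. Ugt8a, Fa2h and Gal3st1 build the galactolipids of the sheath and Aspa frees acetate from N-acetylaspartate, and the 4 maternal minus virgin differences ran from 0.002 to 0.093, with a smallest limma adjusted p of 0.765. The connexin genes Gjc3 and Gjb1 of oligodendrocyte gap junctions were at 0.027 and 0.050. Car2, the carbonic anhydrase of oligodendrocytes, was at -0.057 and Qdpr, an enzyme of tetrahydrobiopterin recycling, at -0.027. Trf (transferrin), Plekhh1, Bcas1 and Ndrg1 ran from -0.10 for Bcas1 to 0.13 for Plekhh1, with no limma adjusted p below 0.527. Gjc3 and Bcas1 were the genes with the widest spread between mice of a group, with pooled SDs of 0.30 and 0.26.

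The 5 transcription factors of the set had higher means in maternal LS than in virgin LS, without any passing the threshold. Their differences from virgin mice were 0.16 for Myrf, 0.12 for Olig2, 0.073 for Olig1, 0.047 for Sox10 and 0.033 for Nkx6-2. In the comparison with pups removed mice, the 5 differences ran from 0.002 for Sox10 to 0.11 for Myrf. Without pups removed replicate 3 these 2 were -0.041 and 0.061, so the direction of Sox10 in that comparison is not settled. Among all probesets, 43.4% had a difference from virgin mice below 0 and 51.7% a difference from pups removed mice below 0.

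Myrf, the factor that myelin gene expression depends on, ran from 8.95 through a median of 9.115 to 9.28 in virgin mice and from 9.18 through 9.295 to 9.38 in maternal mice. In pups removed mice it ran from 8.92 through 9.155 to 9.44, wider than either. The groups overlapped, and the difference from virgin mice (SE 0.074) had a limma adjusted p of 0.453. Olig2, which the lineage needs from its start, ran from 8.95 through 9.09 to 9.18 in virgin, from 9.12 through 9.195 to 9.27 in maternal and from 9.0 through 9.11 to 9.22 in pups removed mice. Here too the groups overlapped, with a limma adjusted p of 0.395 against virgin mice (SE 0.047).

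Olig1 was at 9.59 ± 0.091 in virgin mice, 9.66 ± 0.057 in maternal mice and 9.64 ± 0.078 where pups were removed. Sox10 was at 8.86 ± 0.077, 8.90 ± 0.043 and 8.90 ± 0.13 in the same order. The direction for Myrf, Olig1, Olig2 and Sox10 against virgin mice stayed the same in each of the 18 fits that left out 1 array, with Sox10 between 0.032 and 0.075.

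Besides Gpr17, the receptor, surface, matrix and enzyme genes of the precursor cell had differences within the spread between mice. Pdgfra, the receptor for the growth factor that drives precursor division, was at 9.41 ± 0.066 in virgin mice, 9.40 ± 0.12 in maternal mice and 9.38 ± 0.15 where pups were removed, with a maternal minus virgin interval from -0.15 to 0.13. Cspg4, the NG2 proteoglycan on the precursor surface, was at 8.53 ± 0.087, 8.51 ± 0.030 and 8.54 ± 0.097, with an interval from -0.12 to 0.073. Neu4, Lhfpl3, C1ql1 and the matrix protein Tnr differed from virgin mice by 0 to 0.030, and Tnr, with a pooled SD of 0.035, was the least variable gene of the set.

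Genes of the same lineage outside the set were read in 5 further lists. Of genes of committed precursors and newly formed oligodendrocytes, 12 of 13 were measured, and 5 had a higher and 7 a lower mean in maternal than in virgin mice, with a median of -0.032 and none called. The 2 with the smallest p were Bmp4, a growth factor that committed precursors make, and Tns3, an adhesion protein of newly formed oligodendrocytes. Bmp4 ran from 8.13 through 8.28 to 8.4 in virgin, from 7.92 through 8.13 to 8.26 in maternal and from 8.23 through 8.345 to 8.39 in pups removed mice. Maternal arrays overlapped both other groups at their upper end. Bmp4 differed from virgin mice by -0.19 (SE 0.061, limma adjusted p = 0.281) and from pups removed mice by -0.23 (SE 0.061, limma adjusted p = 0.31), and Tns3 differed from virgin mice by -0.12 (SE 0.042, limma adjusted p = 0.303). Against pups removed mice 2 genes of this list had a higher and 9 a lower maternal mean, 1 was equal, and none was called.

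Of 13 further precursor genes 12 were measured, with 4 higher, 8 lower and a median of -0.013 against virgin mice. Cacng4, a subunit that travels with AMPA receptors in precursors and also in neurons, was the gene called, and it fell (1 of 12, where 1.65% of all probesets were called). Its virgin arrays ran from 10.07 through 10.175 to 10.38, its maternal arrays from 9.90 through 9.975 to 10.06 and its pups removed arrays from 10.03 through 10.085 to 10.25. Every maternal array lay below every virgin array, though only just (10.06 against 10.07). The difference was -0.21 (SE 0.053, 0.87-fold, limma adjusted p = 0.179). With pups removed mice as the reference, it was -0.13 (SE 0.053, limma adjusted p = 0.499). The call held in 13 of the 18 fits that left out 1 array, with limma adjusted p up to 0.34, and was lost without virgin replicate 2 or any one of maternal replicates 2, 4, 5 and 6. Sox8, a SOX factor related to Sox10, was at -0.16 against virgin mice (SE 0.057, limma adjusted p = 0.34). Its highest maternal array was at 9.71 and its lowest virgin array at 9.74, so these groups did not overlap either. The share of all probesets with such a separation is not given here. Relative to pups removed mice, 4 genes of the list were higher and 8 lower, with none called.

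Of 34 further genes of mature oligodendrocytes 33 were measured. Against virgin mice 21 were higher, 11 lower and 1 equal in maternal mice, with a median of 0.015 and none called. The smallest p belonged to Kif19a, a kinesin (-0.16, SE 0.052, limma adjusted p = 0.279), and Cd9, a tetraspanin of myelin (-0.17, SE 0.076, limma adjusted p = 0.434). In the comparison with pups removed mice, 17 were higher and 16 lower, again with none called, and Cd9 (-0.17, limma adjusted p = 0.527) and Serpinb1a, a protease inhibitor (-0.26, limma adjusted p = 0.555), came first.

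Enzymes of sterol and sphingolipid synthesis, which supply lipid to myelin and to every other cell, had 9 of 10 genes measured. Maternal means were higher for 2 and lower for 7 against virgin mice (median -0.072), and higher for 1 and lower for 8 against pups removed mice (median -0.068), with none called in either. Sqle, squalene epoxidase, ran from 8.77 through 9.065 to 9.13 in virgin mice, from 8.74 through 8.845 to 8.89 in maternal mice and from 8.90 through 8.995 to 9.07 in pups removed mice. Maternal arrays overlapped the lowest virgin array and lay just below all pups removed arrays (8.89 against 8.90). How many of all probesets separate in this way is not given here. Its maternal mean differed from the virgin one by -0.16 (SE 0.062, limma adjusted p = 0.387) and from the pups removed one by -0.15 (SE 0.062, limma adjusted p = 0.505). Hmgcs1, an early enzyme of the sterol pathway, differed from virgin mice by -0.12 (limma adjusted p = 0.567) and from pups removed mice by -0.17 (limma adjusted p = 0.511).

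Signals and receptors that act on the lineage had 20 of 22 genes measured. Against virgin mice 5 were higher and 15 lower in maternal mice (median -0.036), and against pups removed mice 8 were higher and 12 lower (median -0.032), with none called. Id4, an inhibitor of basic helix-loop-helix factors, differed from virgin mice by -0.16 (SE 0.062, limma adjusted p = 0.373) and Thra, a thyroid hormone receptor, by -0.077 (SE 0.031, limma adjusted p = 0.390). Against pups removed mice Nrg1, a ligand of ErbB receptors, was at -0.17 (SE 0.057, limma adjusted p = 0.421) and Fgfr3, a fibroblast growth factor receptor, at 0.11 (SE 0.040, limma adjusted p = 0.454). Between pups removed and virgin mice no gene of the 5 lists was called. Unadjusted p under 0.05 against virgin mice was found for 4 committed, 4 further precursor, 2 mature and 1 lipid gene, all lower in maternal mice, and for 3 signal genes, of which Igf1 was the higher one (0.17, SE 0.072, limma adjusted p = 0.422). These are counts out of 12, 12, 33, 9 and 20 genes, beside 10.4% of all probesets, so those of the mature, lipid and signal lists lay near or below that share.

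**Figure D4:**
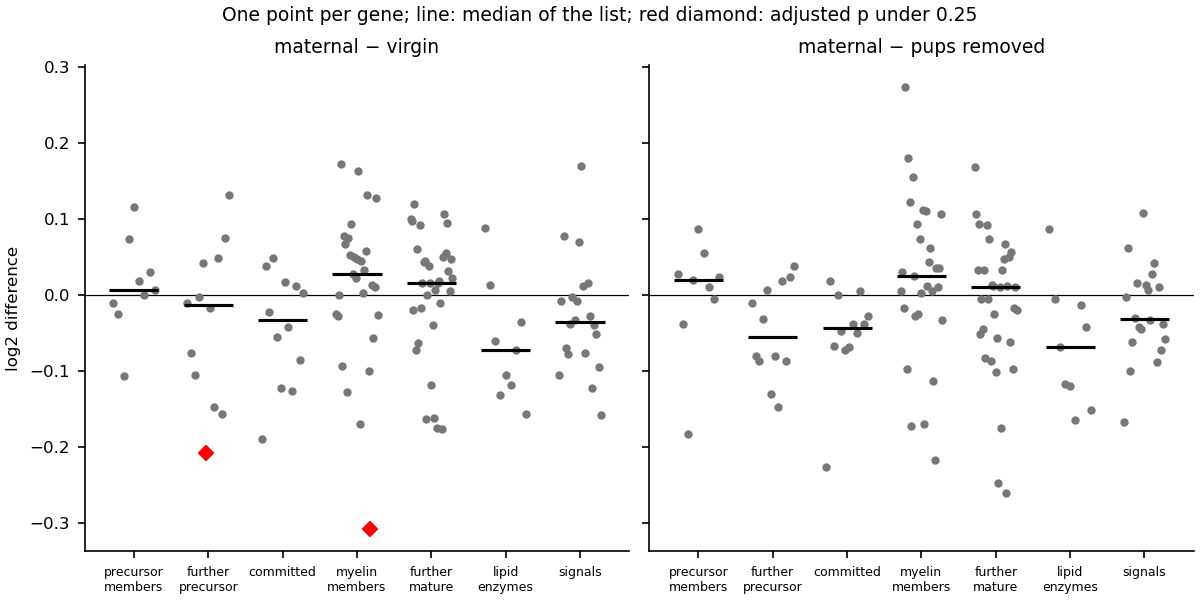
Log2 difference of each gene of the 2 lists of the set and of the 5 further lineage lists, maternal minus virgin (left) and maternal minus pups removed (right), with 1 point per gene, a line at the median of each list and a red diamond where the adjusted p was under 0.25. The diamonds are Cacng4 (-0.21) and Enpp6 (-0.31), both on the left, and the medians lie between -0.072 and 0.027.

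Markers of other cells differed between the same groups. The mean of 7 markers of striatal medium spiny neurons (7 of 9 measured) lay between 10.53 and 10.87 in virgin, between 9.75 and 10.48 in maternal mice and between 9.92 and 11.00 in pups removed mice, and all 7 had the lower mean in maternal mice against both groups, with none called (smallest limma adjusted p = 0.251). The mean of 6 markers of neural stem cells and neuroblasts lay between 9.14 and 9.31 in virgin, between 8.95 and 9.08 in maternal and between 9.12 and 9.23 in pups removed mice, with 5 of 6 lower in maternal than in virgin mice and 4 of them called (Nes, Egfr, Fabp7 and Nr2e1), where 1.65% of all probesets were called. For 4 ependymal markers the maternal mean was 0.26 lower than the virgin one and for 4 choroid plexus markers 0.73 lower, with overlap. List means differed less for 7 markers of LS neurons (0.022), 8 of astrocytes (-0.024), 7 of microglia (-0.045) and 5 of 6 of endothelial cells (0.011). Within them the microglial genes P2ry12 (-0.18, limma adjusted p = 0.114) and Aif1 (-0.14, limma adjusted p = 0.179) were called lower. The endothelial gene Flt1 was called higher (0.15, limma adjusted p = 0.19). These were 2 of 7 and 1 of 5 markers, beside 1.65% of all probesets. Other markers of both lists went the other way, with 3 microglial means higher and 4 lower, and 2 endothelial means higher and 3 lower. No LS neuron or astrocyte marker was called. Of 3 Schwann cell genes, which would mark peripheral myelin, Pmp22 was measured, with a difference of -0.085 (limma adjusted p = 0.743).

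With the striatal mean of each array as a covariate, a choice made after seeing the data, the Enpp6 difference between maternal and virgin mice was -0.38 and that of Cacng4 -0.11, and neither was called (limma adjusted p = 0.852 and 0.877). Their unadjusted limma p were 0.0048 and 0.0602, against 0.00377 and 0.000938 without the covariate. With the stem cell and neuroblast mean as the covariate the differences were -0.24 and -0.23 (limma adjusted p = 0.791 and 0.691, unadjusted 0.211 and 0.0371). The adjustment runs over the whole table, and the share of all probesets called in these fits is not given here. Both covariates differed between maternal and virgin mice with no overlap, so that covariate and group cannot be fully told apart in these fits. The part of these cells in the differences was otherwise not tested.

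What the myelin genes shared, beyond their function, was their variation from mouse to mouse. The SD between mice of a group, pooled over the 3 groups, had a median of 0.16 over the 29 myelin genes (range 0.090 to 0.30) and of 0.077 over the 9 precursor genes (range 0.035 to 0.13). The median was 0.079 over 12287 probesets that name 1 gene and whose mean signal was in the same range. Once group means were taken away, the correlation of a pair of myelin genes over the 18 arrays had a median of 0.66, and 99% of 406 pairs were above 0. For pairs of precursor genes the median was 0.21 (36 pairs), and for a myelin gene paired with a precursor gene it was 0.18 (261 pairs). The same correlation is not given for other genes of that signal range. These are descriptions, since all points come from the same 18 mice, punches and arrays.

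Mag, Trf, Gpr37 and Cnp followed the mean of the other myelin genes most closely, with r from 0.94 to 0.95. Enpp6 was at 0.81, Mobp at 0.92, Pllp at 0.77 and Myrf at 0.70. Gal3st1 and Gjb1 followed it least, at 0.33 and 0.39. Among precursor genes C1ql1 was at 0.61 and Olig1 at 0.52, whereas Cspg4 was at -0.068 and Gpr17 at -0.17.

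**Figure D5:**
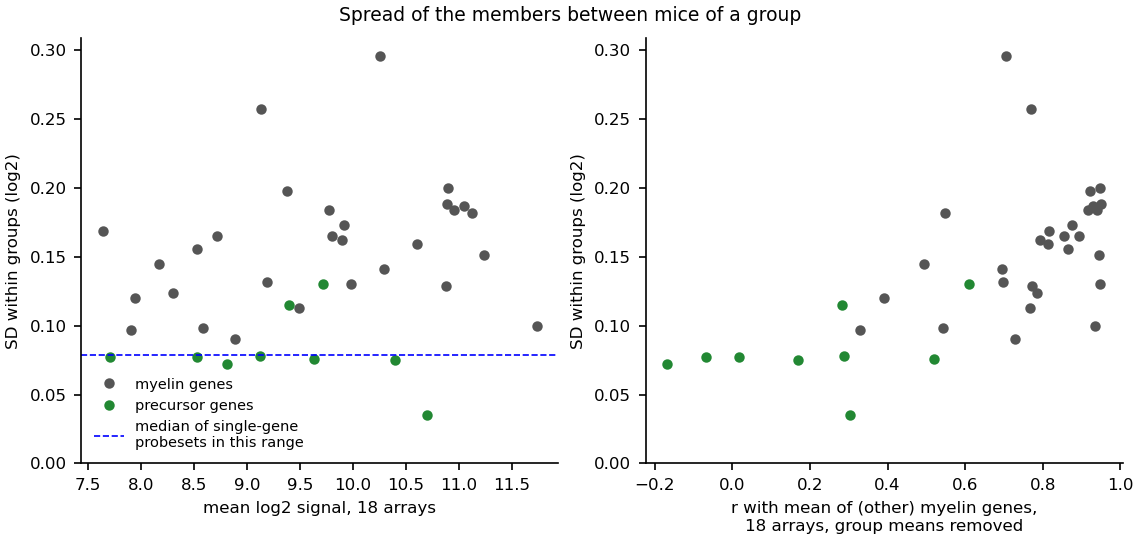
Pooled SD between mice of a group (log2 units) for the 29 myelin (gray) and 9 precursor (green) genes, against the mean log2 signal (left) and against the correlation with the mean of the (other) myelin genes over 18 arrays with group means removed (right). All 29 myelin genes lie above the dashed line, which marks the median SD of 0.079 of 12287 single-gene probesets in the same signal range, and most precursor genes lie near it.

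Single mice stood out by their myelin genes as a whole. In pups removed replicate 3, 0 of 29 myelin genes were above the mean of their group and the mean deviation was -0.30. By contrast 28 of 29 were above it in pups removed replicates 1 and 4, with a mean deviation of 0.18 in each. All 29 were above in virgin replicate 2 (0.12) and 26 in maternal replicate 1 (0.17), while 2 were above in virgin replicate 1 (-0.13) and 5 in maternal replicate 2 (-0.12). The share of all probesets above their group mean on each array is not given here. In the pups removed group the mean of the further mature genes went the same way. It was 8.77 in replicate 3 and 9.12 and 9.10 in replicates 1 and 4. The precursor genes of pups removed replicate 3 did not follow, with 3 of 9 above the group mean and a mean deviation of 0.004. The mean of the LS neuron markers was at its highest of all arrays in that mouse, at 10.20.

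With the mean of the other myelin genes of each array as a covariate, again chosen after seeing the data, more of the set passed, and the share of all probesets called was 1.83% between maternal and virgin mice and 0.343% between maternal and pups removed mice. Between maternal and virgin mice Enpp6 (-0.33, limma adjusted p = 0.103), Pllp (-0.18, limma adjusted p = 0.178) and Mobp (0.16, limma adjusted p = 0.22) were called. With pups removed mice as the reference, Enpp6 (-0.25, limma adjusted p = 0.231), Pllp (-0.19, limma adjusted p = 0.238), Opalin (-0.20, limma adjusted p = 0.237) and Mobp (0.26, limma adjusted p = 0.176) were called. In these fits Mobp was high and the other genes were low in maternal mice relative to the myelin genes of the same mouse. Because the covariate takes up variation that myelin genes share, their spread shrinks more than that of probesets that do not follow it. The added calls and the shares over all probesets are therefore not a like comparison.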

How the data were processed

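LS RNA (200 ng) from 6 of 8 mice per group was hybridised by the authors to 18 arrays. They summarized probesets by PLIER with GC bin background in Affymetrix Power Tools 1.12.0, and deposited log2 values with 2 decimals. A method of normalization between arrays is not given in the sources used here, and RNA was prepared in triplets of 1 mouse per group that the labels do not identify. Arrays have no read depth, and their number limits the precision. Of 35557 probesets, 21789 name 1 gene, 1621 several and 12147 none by the platform annotation, and a gene was read from its brightest single-gene probeset.

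Here 1 mean per group was fitted to all probesets in limma 3.58.1 (R 4.3.3, lmFit and eBayes, prior degrees of freedom 2.62), with Benjamini-Hochberg adjustment over all probesets and a threshold of 0.25. The fit was tested on simulated data. Described by name were genes called, with unadjusted p under 0.05, or among the defining markers (Mbp, Mog, Mag, Mobp, Cnp, Pdgfra, Cspg4, Gpr17, Olig1, Olig2, Sox10, Myrf). Pllp was named as well because the study measured it by qPCR. Of further lists the genes called or the 2 with the smallest p were named. Other members were given 1 value or a range, and Sox8 was named after its values were seen. Members and lists were chosen with earlier results of these data known, and lists got counts and medians but no test. Alternatives were a replicate block, quantile normalization, a dim filter (mean of at least 6), fits of 12 arrays, an eBayes trend, array weights, a threshold of 0.05 and leaving out each array. Covariates were added after seeing the data. Promoters are from RefSeq (GRCm38.p6).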

Additional observations from a re-analysis of the deposited data

Results flagged for a closer look

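Within groups of 6 mice, 123 sets of values (each gene of the set and each list mean, by group) were examined for an array whose gap to its nearest neighbour took an unusually large part of the range (above the 95% critical value of Dixon's ratio), and 8 were found where chance gives about 1 in 20. In pups removed replicate 3 the lowest value stood apart for Pllp (9.26, next 9.56), Fa2h (9.28, next 9.75), Bcas1 (8.48, next 9.17) and Ndrg1 (9.86, next 10.29), the array in which 0 of 29 myelin genes were above the mean of their group. Pllp also had a low array in the maternal group, replicate 2, at 9.18 (next 9.37). Trf stood high in virgin replicate 2 at 11.08 (next 10.90), and Hapln2 stood low in virgin replicate 3 at 7.94 (next 8.16). The precursor mean minus the myelin mean was lowest in maternal replicate 1 at -0.53 (next -0.37), the maternal array with the highest myelin mean.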

How the results depend on the processing

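Across 1512 gene values under alternatives, 1462 kept their side of the threshold, 25 lost a call, 25 gained one and 0 calls changed direction, while 50 uncalled differences took the other sign (values up to 0.123 in size, all with a limma adjusted p of at least 0.837). The number of genes of the set called between maternal and virgin mice, 1, became 0 with array weights (Enpp6 -0.31, limma adjusted p = 0.261) and at a threshold of 0.05, was 3, 0 and 0 with the myelin, striatal and stem cell covariates added after seeing the data, and ran from 0 to 2 without single arrays. With the replicate number as a block it was 0 (Enpp6 -0.31, limma adjusted p = 0.305). Arrays of the same number did not deviate together (r from -0.248 to 0.095). Those values cannot tell whether the numbers mark the triplets of RNA preparation. Against pups removed mice the number, 0, became 1 with the dim filter, the eBayes trend and array weights, each time Gpr17 (limma adjusted p = 0.224, 0.25 and 0.142), became 4 with the myelin covariate, and ran from 0 to 2 without single arrays. Of the further lineage genes, 1 was called between maternal and virgin mice and 3 were with quantile normalization or the dim filter, 2 with 12 arrays or the trend, 0 at 0.05, 3, 0 and 0 with the covariates, and 0 to 5 without single arrays. Against pups removed mice the number, 0, became 1 with array weights and 0 to 2 without single arrays. List medians moved by less than the SD between mice. The next brightest probeset could not be tried, because each gene has 1. Apart from the different tables and arrays fitted, the cause was not tested.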
